A study of Mus musculus with 2 samples.

Results

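The growth factors described here are 8 ligands of the ErbB receptor family: the neuregulins Nrg1, Nrg2 and Nrg4 and the EGF-family ligands Areg, Tgfa, Hbegf, Btc and Ereg. They were taken by symbol from the count matrices, where all 8 of them were present among 19070 genes. Their UMIs (unique molecular identifiers, each standing for 1 captured molecule) were summed by library and by the kind of cell that carried them. The question was which cells of the uterine lining made each ligand, and how those levels stood in the library with a deletion of Erbb3.

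The ErbB family holds the receptors Egfr, Erbb2, Erbb3 and Erbb4, which signal as pairs after a ligand has bound. Areg (amphiregulin) and Tgfa (transforming growth factor alpha) bind Egfr, while Hbegf (heparin-binding EGF-like growth factor), Btc (betacellulin) and Ereg (epiregulin) bind Egfr and Erbb4. Nrg1 and Nrg2 bind Erbb3 and Erbb4, and Nrg4 binds Erbb4. Erbb2 has no ligand of its own, and Erbb3, whose kinase is weak, depends on its partner. In the mouse uterus Areg is known as a progesterone-responsive epithelial gene and Hbegf as a ligand made at the site of blastocyst attachment.

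Endometrial cells came from uteri of day 3 of pregnancy. The control library was Erbb3 f/f (floxed), and the other, Erbb3 d/d, carried a deletion of Erbb3 that the labels place in the stroma. About 25 mg of tissue was fixed for 16 h, dissociated with collagenases for 40 min and measured with the Chromium Flex assay, in which probes rather than reverse transcription report each gene. The labels name different kits for the same libraries. The driver of the deletion, the number and age of the mice, and the probe positions were not given in the sources used here. With 1 library per genotype no test was possible, so every difference is one between preparations, and the spread between animals is unknown. Intervals are exact 95% intervals (Poisson for levels, binomial for shares, conditional binomial for ratios) and cover counting error only. Levels are UMIs scaled to a common total for the same cells (CPM). They are compared only within a gene, because a probe level carries no length scale.

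The cells used numbered 5503 (f/f, 5517795 UMIs) and 1830 (d/d, 1712695 UMIs), with medians of 809 and 764.5 UMIs per cell. No full barcode was shared between the libraries (0), and 158 were shared over their first 16 bases. Each cell was gated by lists of marker genes, which gave 1656 f/f and 557 d/d epithelial cells and 1947 f/f and 528 d/d stromal cells. Gates left 1192 f/f and 507 d/d cells without a type. Cells were also grouped by Leiden clustering, which gave 2857 f/f and 1058 d/d epithelial-like cells and 1166 f/f and 210 d/d stromal-like cells. All 9 epithelial markers were detected in the epithelial gates of both libraries, and all 9 stromal markers in the stromal gates.

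The stromal gate was not pure. Of its cells, 58.2% (f/f) and 39.0% (d/d) lay in the stromal-like cluster, 9.25% and 20.5% in the mesothelial-like one, and 6.78% and 11.4% in the epithelial-like ones. Krt7, Krt8, Krt18 and Krt19 are keratins that epithelium makes. Their summed level was 26.8% of its epithelial value in the f/f stromal gate and 35.1% in the d/d one. In the stromal-like clusters it was 5.91% and 8.96%. Mesothelial-like cells held these keratins at 93.7% (f/f) and 82.1% (d/d) of the epithelial-like level. Keratin in the stromal gate thus does not mark epithelial cells alone. In the other direction, 5 stromal matrix genes stood at 5.30% and 4.46% of their stromal level in the epithelial gates, and at 4.88% and 4.33% in the epithelial-like clusters. Gate and cluster values are therefore given side by side, and a ligand at a few percent of its level elsewhere is not read as made by that cell type.

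The epithelial-like cells were not the same mixture in both libraries. In f/f, 48.7% of them lay in cluster 0 (led by Slc51a, Slc5a11 and Lrp2) and 25.5% in cluster 3 (led by Bpifb5, Cxcl15 and Syn2). In d/d, 61.6% lay in cluster 2 (led by mitotic genes such as Kif11 and Hmmr) and 24.7% in cluster 6 (led by Ecm1, Lcn2 and Ltf). A cluster held mostly by 1 library may be that library and not a cell type. How far this make-up carries the epithelial differences cannot be told apart from the genotype in the sums, so values within clusters are given beside them.

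Sequence upstream of the start is shown for Areg, Nrg4 and Tgfa, the ligands past 2-fold between the libraries in the epithelial gates that had a window in RefSeq, to set their regulatory letters beside each other. Each is the 250 bases before the RefSeq start on GRCm38.p6, read along the gene's strand. There were 3 motifs searched on both strands: TGACGTCA, the full cAMP response element, present in 508 of 32851 such windows (1.55%); TGANTCA, the AP-1 site, in 2217 (6.75%); and the estrogen response element (GGTCA and TGACC with 3 bases between them) in 21 (0.0639%). Capitals mark a match.
Areg (chr5:91139349-91139598, plus strand): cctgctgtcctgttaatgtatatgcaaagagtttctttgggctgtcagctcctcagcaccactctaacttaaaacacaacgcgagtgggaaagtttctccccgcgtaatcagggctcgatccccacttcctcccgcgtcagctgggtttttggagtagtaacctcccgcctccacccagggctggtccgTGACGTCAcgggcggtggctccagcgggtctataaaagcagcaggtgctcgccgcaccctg
Nrg4 (chr9:55283626-55283875, minus strand): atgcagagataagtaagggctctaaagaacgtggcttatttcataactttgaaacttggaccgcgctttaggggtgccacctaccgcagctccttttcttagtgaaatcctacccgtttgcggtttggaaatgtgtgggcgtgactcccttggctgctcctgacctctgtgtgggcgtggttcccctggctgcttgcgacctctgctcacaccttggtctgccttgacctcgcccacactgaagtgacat
Tgfa (chr6:86194972-86195221, plus strand): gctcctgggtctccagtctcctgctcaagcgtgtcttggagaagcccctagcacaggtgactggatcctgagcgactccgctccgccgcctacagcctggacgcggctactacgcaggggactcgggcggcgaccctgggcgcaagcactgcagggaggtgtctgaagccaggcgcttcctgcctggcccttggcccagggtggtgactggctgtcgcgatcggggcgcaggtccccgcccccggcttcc
The Areg window held 1 match, a full cAMP response element that starts 61 bases before the start. The windows of Nrg4, Tgfa and Btc held none of the motifs. A match describes letters and is not evidence of binding, and the absence of one speaks only of this window. The RefSeq start used for Nrg4 lies inside the gene as GENCODE draws it.

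In the GENCODE M21 annotation of GRCm38 all 8 ligands are protein-coding. Areg lies on chromosome 5 from 91139599 to 91148432, 45.95 kb beyond the end of Ereg (91074622 to 91093646) and 208.8 kb before Btc (91357261 to 91402994). Tgfa lies on chromosome 6 (86195223 to 86275719), Nrg1 on chromosome 8 (31814551 to 32884029) and Nrg4 on chromosome 9 (55220222 to 55326844). Nrg2 and Hbegf both lie on chromosome 18.

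Areg and Nrg4 were epithelial and low in d/d, and Nrg2 was stromal and higher in d/d. Tgfa was higher in d/d than in f/f epithelium. Its epithelial level was above the stromal one in d/d under both groupings. In f/f the interval of that comparison lay above 0 in the clusters and spanned 0 in the gates. Hbegf had about the same summed epithelial level in both libraries. For Hbegf that level was above the stromal one in f/f, while in d/d the interval of that comparison spanned 0. Nrg1 was spread over epithelium and stroma in f/f. In d/d its level was higher in stroma than in epithelium under both groupings. Of its d/d UMIs, 76% lay in the stromal gate and 44% in the stromal-like cluster. Over all cells used, the f/f and d/d libraries held 305 and 38 UMIs of Nrg4, 205 and 100 of Nrg2, 109 and 41 of Hbegf, 88 and 46 of Tgfa, 87 and 4 of Areg, 60 and 25 of Nrg1, 19 and 8 of Btc, and 3 and 1 of Ereg. These are small sums, and they set the width of every interval below.

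**Figure D1:**
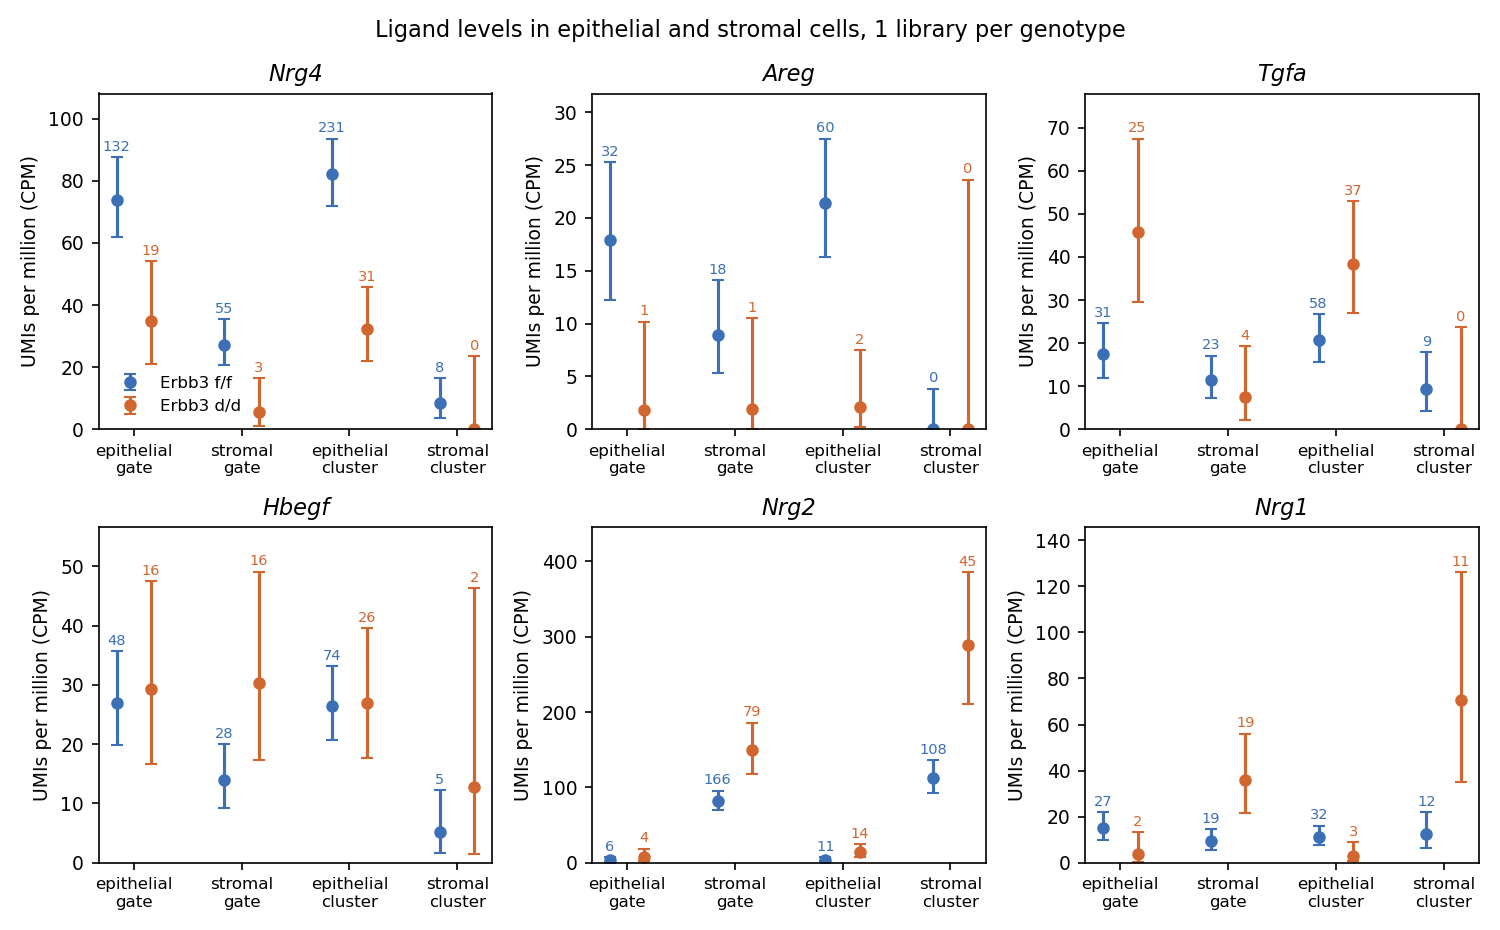
Level of 6 ligands in CPM (vertical axis) in epithelial and stromal cells, set by marker gates or by clusters; points are library sums, bars exact 95% Poisson intervals, and the number over each bar is the count of UMIs. Nrg4 and Areg stand lower in d/d epithelium (31 and 2 UMIs in the clusters, against 231 and 60 in f/f), while Nrg2 stands higher in d/d stroma.

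Areg, a progesterone-responsive Egfr ligand, had 4 UMIs in all d/d cells used. In the epithelial gates it stood at 17.9 CPM (12.3 to 25.3, 32 UMIs) in f/f and at 1.83 CPM (0.0463 to 10.2, 1 UMI) in d/d. In the epithelial-like clusters it stood at 21.4 CPM (16.3 to 27.5, 60 UMIs) and 2.08 CPM (0.252 to 7.50, 2 UMIs). The intervals of the libraries did not overlap under either grouping. The d/d to f/f log2 ratio was -3.29 (-8.64 to -0.71) in the gates and -3.36 (-6.44 to -1.45) in the clusters, and -2.76 (-4.66 to -1.35) over all cells used.

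The stromal-like clusters held 0 UMIs of Areg in both libraries, which allows up to 3.13 CPM in f/f and 19.2 CPM in d/d. In f/f, Areg was thus at least 6.82-fold higher in the epithelial-like than in the stromal-like cells, with the floor taken as 3 counts per library. The f/f stromal gate held 18 UMIs (8.92 CPM), in a gate whose keratin level was 26.8% of the epithelial one. In the f/f gates the epithelial level of Areg was 2.01-fold the stromal one (log2 1.01, 0.13 to 1.93). Without the 5% deepest cells that interval spanned 0 (0.71, -0.20 to 1.65). Outside these classes, 14 UMIs (25.5 CPM) lay in the unnamed f/f cluster, whose leading genes included Adra1a, Tcf21 and Sfrp4, and 7 UMIs (16.1 CPM) in the myeloid-like cells. Keratins in those groups stood at 61.7% and 32.4% of their epithelial level. The f/f cells that the gates left without a type held 26 UMIs of Areg at 28.7 CPM, above the 17.9 CPM of the epithelial gate.

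Within f/f epithelium, Areg was highest in cluster 3, the Cxcl15 and Syn2 cluster, at 41.6 CPM (27 UMIs), against 16.7 CPM in cluster 0 (21 UMIs) and 15.9 CPM in cluster 2 (11 UMIs). Cells gated on the gland list (Foxa2, Cxcl15, Wfdc3 and others, 288 cells) held 11 UMIs at 37.3 CPM against 19.5 CPM in the other epithelial-like cells. That log2 ratio of 0.94 had an interval that reached below 0 (-0.16 to 1.90). In d/d, cluster 3 held 58 cells and 0 UMIs of Areg, too few cells for a limit below the f/f level.

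Areg was also lower in d/d within the mitotic cluster 2, which had 506 f/f and 652 d/d cells. It held 11 f/f UMIs and 0 d/d UMIs, a log2 ratio of -1.78 or lower with the floor of 3 counts. Cells of the epithelial-like clusters that passed no sub-gate held 25 UMIs in f/f (1459 cells) and 1 in d/d (929 cells), a log2 ratio of -4.04 (-9.40 to -1.43). Both d/d UMIs of the epithelial-like clusters came from the 25 cells of cluster 0, at 104 CPM against 16.7 CPM in f/f, or 2.64 on the log2 scale (-0.49 to 4.67). Areg in d/d was thus lower within cluster 2 and among cells of no sub-gate, and higher in cluster 0 with an interval that spanned 0.

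Tgfa, which like Areg binds Egfr, went the other way. In the epithelial gates it stood at 17.4 CPM (11.8 to 24.7, 31 UMIs) in f/f and at 45.7 CPM (29.6 to 67.5, 25 UMIs) in d/d. In the epithelial-like clusters the levels were 20.7 CPM (15.7 to 26.7, 58 UMIs) and 38.4 CPM (27.1 to 53.0, 37 UMIs). The d/d value was the higher one under both groupings, with a log2 ratio of 1.40 (0.58 to 2.20) in the gates and 0.89 (0.26 to 1.51) in the clusters. The second value is under a 2-fold difference.

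In the stromal-like clusters Tgfa had 9 UMIs in the f/f library (9.41 CPM) and 0 in d/d. The stromal gates held 23 UMIs (11.4 CPM) and 4 UMIs (7.56 CPM). The f/f epithelial-like level was 2.20-fold the stromal-like one (log2 1.14, 0.11 to 2.33), and that stromal-like level was 45.5% of the epithelial-like one (19.8 to 92.5%) beside a keratin value of 5.91%. In the gates the log2 ratio of epithelial over stromal cells was 0.61 in f/f, with an interval that spanned 0 (-0.22 to 1.45). In d/d it was 2.60 (1.06 to 4.58). In the unnamed f/f cluster Tgfa stood at 96.8% of the epithelial-like level (45.8 to 186%, 11 UMIs), where the keratins were at 61.7%. Within d/d epithelium the 27 cells gated on Muc4 and Ptpn22 held 5 of the 37 UMIs, at 153 CPM against 34.4 CPM in the rest (log2 2.15, 0.44 to 3.52). The same gate in f/f, also 27 cells, held 3 UMIs at 102 CPM against 19.8 CPM in the rest (log2 2.37, 0.05 to 3.99). Within the marker-gated epithelium this sub-gate gave a log2 ratio of 2.28 in f/f (-0.83 to 4.26, 2 UMIs). In d/d it gave 2.33 (0.33 to 3.90, 4 UMIs). These cells thus stood above the rest for Tgfa in both libraries, on few UMIs, and the f/f interval spanned 0 in the gates.

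Within the mitotic cluster 2, Tgfa was at 24.5 CPM in f/f (17 UMIs) and 37.1 CPM in d/d (24 UMIs), a log2 ratio of 0.60 (-0.36 to 1.58). In cluster 6 it was at 26.2 CPM (5 UMIs) and 45.9 CPM (9 UMIs), a log2 ratio of 0.81 (-0.92 to 2.74). Inside a single cluster the interval therefore reached below 0 in both cases.

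Hbegf, a ligand of Egfr and Erbb4, had the d/d to f/f log2 ratio of summed epithelial levels nearest to 0 among the 5 ligands with at least 20 UMIs in the epithelial gates. The epithelial gates held 26.9 CPM (19.8 to 35.7, 48 UMIs) in f/f and 29.2 CPM (16.7 to 47.5, 16 UMIs) in d/d, and the epithelial-like clusters 26.4 CPM (20.7 to 33.1, 74 UMIs) and 27.0 CPM (17.6 to 39.6, 26 UMIs). The log2 ratios were 0.12 in the gates (-0.79 to 0.96) and 0.03 in the clusters (-0.67 to 0.70), so a difference of 2-fold in either direction of these sums lies outside both intervals. Single clusters moved in different directions. In cluster 0 the d/d level was the higher one, 156 CPM (3 UMIs) against 25.4 CPM (32 UMIs), or 2.62 on the log2 scale (0.27 to 4.30). In cluster 2 it was 23.2 CPM (15 UMIs) against 11.5 CPM (8 UMIs), with an interval of the log2 ratio from -0.32 to 2.45. In cluster 6 it was the lower one, 35.7 CPM (7 UMIs) against 73.4 CPM (14 UMIs), a log2 ratio of -1.04 (-2.59 to 0.37). Cluster 3 held 20 UMIs in f/f and 0 in the 58 cells of d/d.

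The stromal gate of d/d held 30.2 CPM of Hbegf (16 UMIs) against 13.9 CPM in f/f (28 UMIs), a log2 ratio of 1.12 (0.14 to 2.06). The stromal-like clusters held only 5 UMIs in f/f (5.23 CPM) and 2 in d/d (12.8 CPM). The d/d gate was the one with the higher share of epithelial-like cells and of keratin signal, as given above, and the part of that signal in the Hbegf value was not tested. Smooth muscle- and pericyte-like cells, 82 in f/f, held 62.8 CPM of Hbegf (20.4 to 147) from 5 UMIs, and the 16 of d/d held 2 UMIs. In f/f the epithelial-like level was 5.05-fold the stromal-like one (log2 2.34, 1.05 to 4.00). In the f/f gates the epithelial level was 1.94-fold the stromal one (log2 0.95, 0.25 to 1.68). With all deposited barcodes that interval spanned 0 (0.61, -0.06 to 1.31). In d/d that log2 ratio was 1.07 in the clusters (-0.92 to 4.19), and in the gates it was -0.05 (-1.14 to 1.05), with 39.0% of the library's Hbegf UMIs in each gate. The d/d myeloid-like level was 100.6% of the epithelial-like one (30.2 to 266%, 5 UMIs) and that of the unnamed cluster 118.5% (30.1 to 342%, 4 UMIs). An epithelial excess of Hbegf was thus measured in f/f and was not resolved in d/d.

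In f/f epithelium Hbegf differed between kinds of cell. The 72 cells gated on Ltf and Clca3b, genes of secretory epithelium, held 79.1 CPM (7 UMIs) against 24.6 CPM in the rest, a log2 ratio of 1.68 (0.31 to 2.80). In d/d the 48 cells of that gate held 1 UMI at 23.3 CPM against 27.2 CPM in the rest (log2 -0.22, -5.58 to 2.39), and within the marker-gated epithelium the same sub-gate (27 cells) held 0 of 16 UMIs, so the f/f order was not seen there. Cycling cells, gated on Mki67, Top2a and other mitotic genes (516 cells), held 10.9 CPM (8 UMIs) against 31.9 CPM in the others (66 UMIs), a log2 ratio of -1.55 (-2.82 to -0.49). In d/d the cycling cells held 20.5 CPM (12 UMIs) and the others 37.0 CPM (14 UMIs), a log2 ratio of -0.85 with an interval that reached above 0 (-2.09 to 0.37). For cycling cells the same order held in both libraries, and the interval excluded 0 in f/f alone, with no test of whether the libraries differ in this.

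Btc and Ereg, the remaining ligands of Egfr and Erbb4, were at or near the detection limit. Btc in the epithelial-like clusters stood at 5.35 CPM (2.99 to 8.82, 15 UMIs) in f/f and 6.23 CPM (2.29 to 13.6, 6 UMIs) in d/d, and the stromal-like clusters held 0 and 1 UMIs. Of the 19 f/f UMIs of Btc, 78.9% (54.4 to 93.9%) came from epithelial-like cells, which carried 50.9% of all f/f UMIs. Ereg had 3 UMIs in f/f epithelial-like cells and 0 in d/d, which allows up to 3.11 CPM there. No ratio is given for it.

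Nrg4, a ligand of Erbb4, was epithelial. The epithelial gates held 73.9 CPM (61.9 to 87.7, 132 UMIs) in f/f and 34.7 CPM (20.9 to 54.3, 19 UMIs) in d/d. The epithelial-like clusters held 82.3 CPM (72.0 to 93.6, 231 UMIs) and 32.2 CPM (21.9 to 45.7, 31 UMIs). The intervals did not overlap, and the d/d to f/f log2 ratio was -1.09 (-1.87 to -0.39) in the gates and -1.35 (-1.95 to -0.81) in the clusters. Under stricter gates the ratio was below 2-fold, at -0.82 (-1.75 to 0.0066) with at least 3 marker UMIs and -0.78 (-1.57 to -0.07) with a marker lead of 4 times. After each cell had been thinned to 500 UMIs, 3.87% of f/f epithelial-gate cells (2.99 to 4.91%) and 1.80% of d/d ones (0.864 to 3.28%) had a UMI of Nrg4. Without thinning the shares were 6.94% and 3.23%, at median depths of 912 and 898 UMIs. In the stromal gates, at median depths of 785 and 750, the thinned shares were 1.55% and 0.189%.

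In the stromal-like clusters Nrg4 had 8 UMIs (8.36 CPM) in f/f and 0 in d/d, which allows up to 19.2 CPM. That f/f level was 10.2% of the epithelial-like one (4.33 to 20.4%), and the keratins stood at 5.91%. The epithelial-like level was 9.85-fold the stromal-like one in f/f (log2 3.30, 2.30 to 4.53) and at least 1.67-fold in d/d. In the gates it was 2.71-fold in f/f (log2 1.44, 0.975 to 1.92) and 6.13-fold in d/d (log2 2.62, 0.85 to 5.01). The stromal gates held 55 UMIs (27.3 CPM) in f/f and 3 UMIs (5.67 CPM) in d/d, a log2 ratio of -2.27 (-4.59 to -0.64). With collagens left out of the stromal marker list d/d held 0 UMIs, and with the floor of 3 counts the ratio was -0.13 or lower. Among the other classes of f/f, Nrg4 stood at 56.4 CPM in the unnamed cluster (31 UMIs), 47.3 CPM in endothelial-like cells (13 UMIs), 32.2 CPM in myeloid-like cells (14 UMIs) and 19.1 CPM in mesothelial-like cells (7 UMIs). The endothelial-like value was 57.5% of the epithelial-like one (30.1 to 100.2%), where the keratins were at 25.7%.

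**Figure D2:**
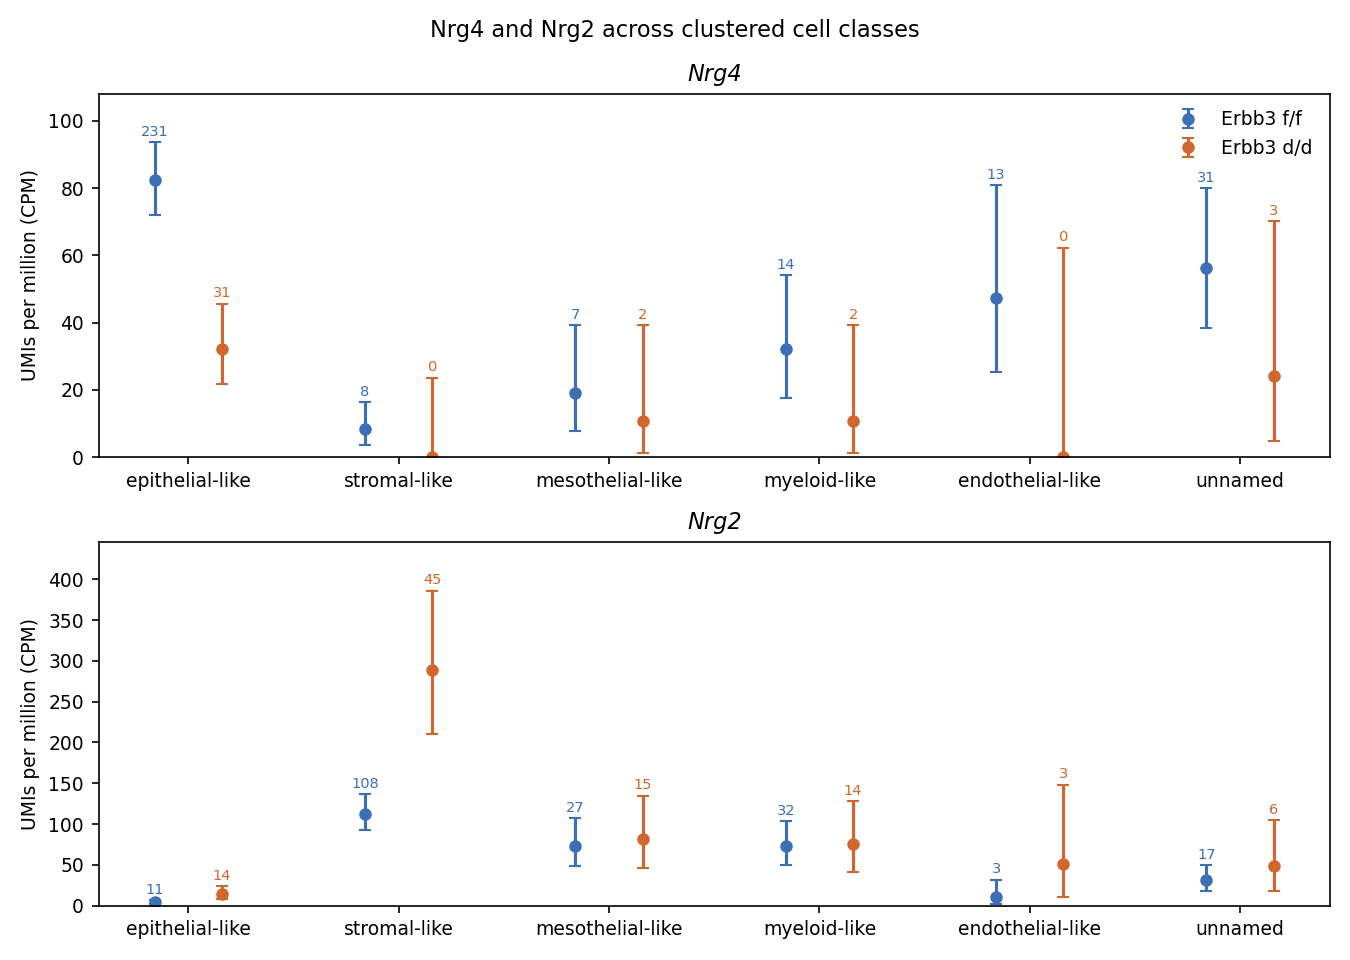
Nrg4 and Nrg2 in 6 groups of clustered cells, in CPM (vertical axis), with exact 95% Poisson intervals and UMI counts over the bars. Nrg4 is highest in epithelial-like cells of both libraries (231 and 31 UMIs) and Nrg2 in stromal-like cells (108 and 45 UMIs), with Nrg2 in mesothelial-like and myeloid-like cells next in order.

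Within f/f epithelium Nrg4 was highest in cluster 3, the Cxcl15 and Syn2 cluster, at 135 CPM (88 UMIs). It stood at 72.3 CPM in cluster 0 (91 UMIs), 60.6 CPM in cluster 2 (42 UMIs) and 47.2 CPM in cluster 6 (9 UMIs). Gating on the gland list gave the same picture, with 142 CPM (42 UMIs) in 288 gland-gated cells and 75.2 CPM in the rest, a log2 ratio of 0.92 (0.40 to 1.41). Cycling cells held less than the others in f/f, 58.5 against 90.8 CPM (log2 -0.63, -1.15 to -0.15). In d/d the clusters gave 35.9 against 26.4 CPM (log2 0.44, -0.71 to 1.69) and the gates 32.6 against 38.2 CPM (log2 -0.23, -1.68 to 1.29), so the order depended on the grouping and both intervals spanned 0. In the f/f gates the log2 ratio was -0.62 (-1.30 to 0.0067).

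Gland-gated cells were 10.1% of the f/f epithelial-like cells and 1.99% of the d/d ones (21 cells, 1 UMI of Nrg4), and cycling cells were 18.1% and 52.9%. In the mitotic cluster 2, Nrg4 stood at 60.6 CPM in f/f and 35.5 CPM in d/d (23 UMIs), a log2 ratio of -0.77 (-1.57 to -0.0045). Among cells of no sub-gate the ratio was -1.31 (-1.98 to -0.69), from 102 and 27 UMIs. Among cells that were not cycling it was -1.78 (-2.86 to -0.87), from 188 and 10 UMIs. In cluster 0, where d/d had 25 cells, 3 UMIs gave 156 CPM and a ratio of 1.11 with a wide interval (-1.19 to 2.70). In cluster 3 the ratio was -2.60 (-7.92 to -0.08), from 88 and 1 UMIs, and in cluster 6 it was -1.21 (-3.36 to 0.63). In Lrp2 and Slc5a11 cells, with 2 d/d UMIs, it was 0.65 (-2.43 to 2.57) in the gates and -0.08 (-3.15 to 1.82) in the clusters. In clusters 2 and 3 and among cells of no sub-gate the d/d level was thus lower as well. In cluster 6, cluster 0 and the Lrp2 and Slc5a11 cells the interval spanned 0. Cells of no sub-gate can be cycling, so the make-up is not held fixed there.

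**Figure D3:**
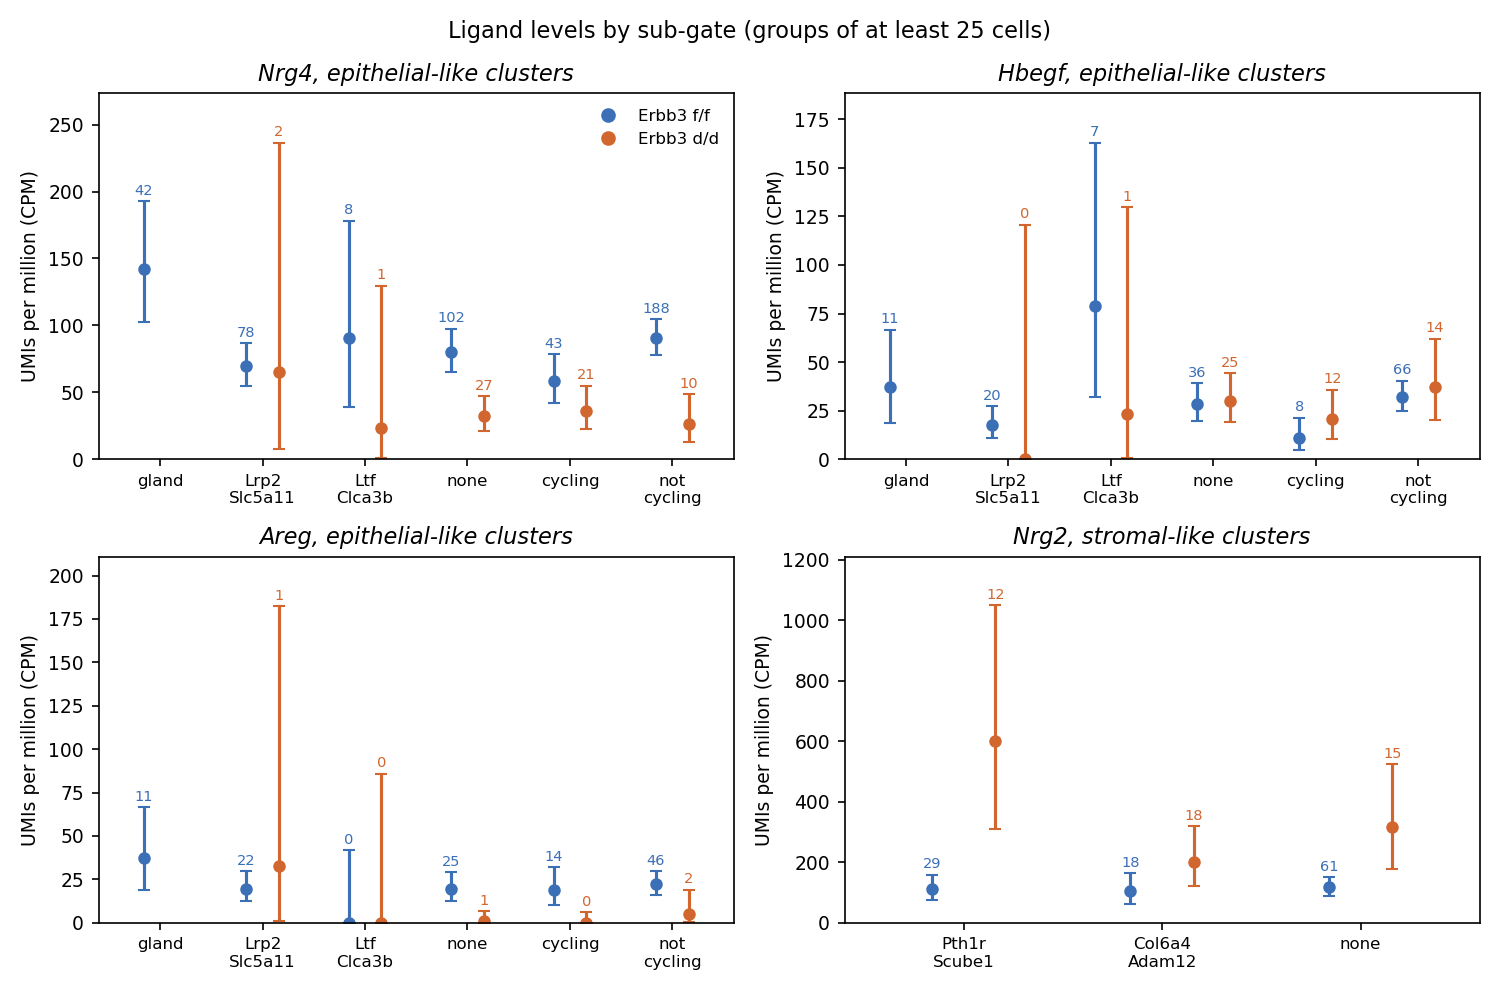
Nrg4, Hbegf and Areg in sub-gated epithelial-like cells and Nrg2 in sub-gated stromal-like cells, in CPM (vertical axis), with exact 95% Poisson intervals and UMI counts; groups under 25 cells are left out, and cycling crosses the other gates. Nrg4 is highest in the gland gate of f/f (42 UMIs), and Nrg2 is higher in d/d in each of the 3 stromal groups.

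Nrg2, a ligand of Erbb3 and Erbb4, was the stromal member of the family. The stromal gates held 82.3 CPM (70.3 to 95.8, 166 UMIs) in f/f and 149 CPM (118 to 186, 79 UMIs) in d/d. The stromal-like clusters held 113 CPM (92.6 to 136, 108 UMIs) and 288 CPM (210.4 to 386, 45 UMIs). The d/d library was the higher one under both groupings, without overlap, with log2 ratios of 0.86 (0.45 to 1.25) in the gates, under 2-fold, and 1.35 (0.82 to 1.87) in the clusters, above it. With collagens left out of the stromal marker list the ratio was 0.49 and its interval spanned 0 (-0.12 to 1.07). In stromal-gate cells thinned to 500 UMIs, 4.13% of the f/f ones (3.29 to 5.12%) and 6.82% of the d/d ones (4.82 to 9.31%) had a UMI, against 0.0604% and 0.359% of epithelial-gate cells. Without thinning the stromal shares were 7.09% and 12.3%.

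Epithelial-like cells held 11 UMIs of Nrg2 in f/f (3.92 CPM) and 14 in d/d (14.5 CPM). These levels were 3.47% (1.68 to 6.46%) and 5.04% (2.56 to 9.35%) of the stromal-like ones, beside 4.88% and 4.33% for the stromal matrix genes. The epithelial-like d/d to f/f ratio, 1.89 on the log2 scale (0.65 to 3.17), belongs to levels whose intervals hold the matrix value in both libraries, and it is not read as epithelial Nrg2. The stromal-like level was 28.8-fold the epithelial-like one in f/f and 19.8-fold in d/d.

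Mesothelial-like cells held 73.7 CPM of Nrg2 in f/f (27 UMIs) and 81.7 CPM in d/d (15 UMIs), and myeloid-like cells 73.7 CPM (32 UMIs) and 76.1 CPM (14 UMIs). In f/f these were 65.3% of the stromal-like level in both classes (41.2 to 100.3% and 42.6 to 97.6%), above the 43.2% and 43.0% of the stromal matrix genes, though the lower bounds reached those values. In d/d they were 28.3% (14.7 to 51.8%) and 26.4% (13.4 to 48.9%), below the 35.2% and 31.6% of the matrix genes, with intervals that held those values. The d/d to f/f ratio was 0.15 in mesothelial-like cells (-0.87 to 1.11) and 0.05 in myeloid-like cells (-0.97 to 0.99). In the 4 named classes given here, only the stromal-like cells and the epithelial-like cells had an interval of that ratio above 0. Whether the classes differ in their ratios was not tested. The share of d/d Nrg2 UMIs that lay in the stromal-like cluster was 45.0% (35.0 to 55.3%), although that cluster carried 9.11% of the library's UMIs. In f/f the share was 52.7% (45.6 to 59.7%), of 17.3% of the UMIs.

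Among stromal-like cells of f/f the Nrg2 level was alike in the sub-gates: 111 CPM in Pth1r and Scube1 cells (29 UMIs) and 104 CPM in Col6a4 and Adam12 cells (18 UMIs). In d/d it was 601 CPM in the 25 Pth1r and Scube1 cells (12 UMIs) and 202 CPM in the 119 Col6a4 and Adam12 cells (18 UMIs). The d/d to f/f ratio was 2.44 (1.33 to 3.45) in the former, 0.96 (-0.07 to 1.99) in the latter and 1.44 (0.52 to 2.28) in cells of neither gate. All 3 ratios were above 0, and the interval spanned 0 in the Col6a4 and Adam12 cells. These sub-gates made up 24.8% and 16.6% of the f/f stromal-like cells and 11.9% and 56.7% of the d/d ones.

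Nrg1, which like Nrg2 binds Erbb3 and Erbb4, had 60 and 25 UMIs over all cells used. Its summed levels moved in opposite directions in the main compartments. In the epithelial gates it stood at 15.1 CPM (9.97 to 22.0, 27 UMIs) in f/f and 3.66 CPM (0.443 to 13.2, 2 UMIs) in d/d. In the stromal gates it stood at 9.42 CPM (5.67 to 14.7, 19 UMIs) and 35.9 CPM (21.6 to 56.1, 19 UMIs). The libraries overlapped in epithelium and did not in stroma. The d/d to f/f log2 ratio was -2.05 (-5.17 to -0.06) in epithelial gates and 1.93 (0.93 to 2.93) in stromal gates. The epithelial interval reached above 0 with cells of at least 500 genes (upper bound 0.093), with a marker lead of 4 times (0.22) and with collagens left out of the stromal list (0.097). In the clusters the same ratios were -1.87 (-4.22 to -0.20), from 32 and 3 UMIs, and 2.49 (1.17 to 3.80), from 12 and 11 UMIs.

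The f/f epithelial-like level, 11.4 CPM, was 90.9% of the stromal-like one, 12.5 CPM, far from the 4.88% of the stromal matrix genes. In d/d the epithelial-like level was 4.42% of the stromal-like one (0.792 to 16.7%), beside 4.33% for the matrix genes. Of the 32 f/f epithelial-like UMIs, 16 lay in the 516 cycling cells, at 21.8 CPM against 7.73 CPM in the others, a log2 ratio of 1.49 (0.40 to 2.59). In d/d the 560 cycling cells had 2 UMIs of Nrg1, and the d/d to f/f ratio within cycling cells was -2.67 (-5.83 to -0.58). Of the 11 d/d stromal-like UMIs, 8 lay in Col6a4 and Adam12 cells, where f/f had 0 UMIs in 193 cells. A further 6 d/d UMIs (48.0 CPM) lay in the unnamed cluster, where f/f had 4 (7.28 CPM). Within the stromal gate the d/d to f/f log2 ratio was 3.86 (1.01 to 9.31) in Col6a4 and Adam12 cells. In cells of no sub-gate it was 1.13 (-0.29 to 2.42) in the stromal gate and 0.01 (-5.42 to 2.79) in the stromal-like cluster. A stromal rise of Nrg1 was thus not resolved among cells of no sub-gate.

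Read against all genes, the counts of ligands past 2-fold were as follows, for ligands with at least 20 UMIs over both libraries. In the epithelial gates 5 of the 8 reached that minimum, of which 3 were at least 2-fold lower in d/d (Nrg1, Nrg4, Areg) and 1 higher (Tgfa), where 7.66% and 7.06% of 9911 genes were lower and higher. In the stromal gates 5 reached it, with 2 higher (Nrg1, Hbegf) and 1 lower (Nrg4), against backgrounds of 5.24% and 5.27% of 10957 genes. Of these, Hbegf was below 2-fold in stroma with all deposited barcodes (log2 0.74, -0.21 to 1.65) and with at least 3 marker UMIs (0.81, -0.30 to 1.84), and epithelial Nrg4 under the stricter gates given above. In the epithelial-like clusters 7 reached it, with the same 3 lower and Nrg2 higher (7.19% and 7.24% of 10666 genes). In the stromal-like cluster 2 reached it, and both Nrg1 and Nrg2 were higher, where 5% of 8606 genes were higher and 9.56% lower. Over all cells used 7 reached it, with Nrg4 and Areg lower and 0 higher (4.81% and 4.99% of 12316 genes). The shares of all genes were not matched to the UMI counts of the ligands, and they vary with the minimum count. In the epithelial gates, 4.37% of genes were higher and 4.62% lower with a minimum of 100 UMIs. With a minimum of 1 UMI, 11.6% were higher and 7.08% lower.

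**Figure D4:**
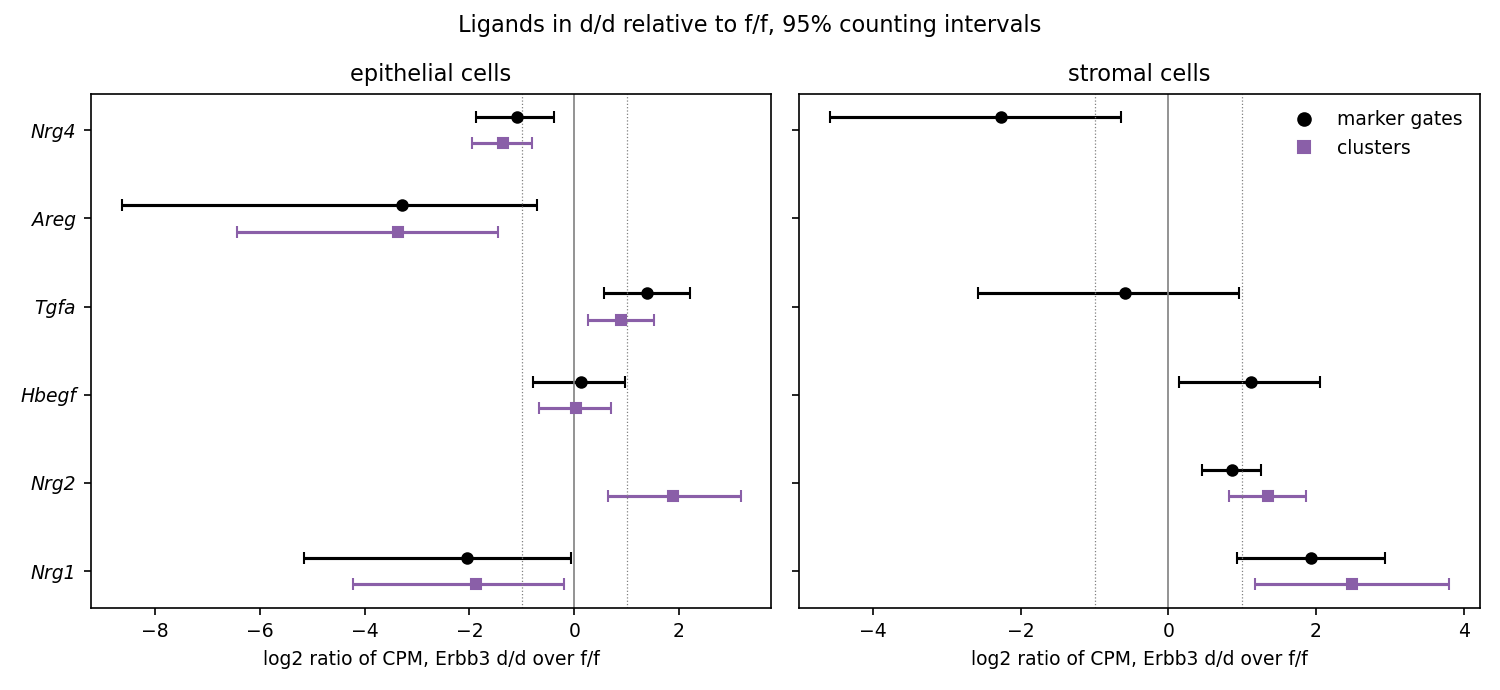
Log2 ratio of CPM in d/d over f/f (horizontal axis) for ligands with at least 20 UMIs over both libraries, in epithelial and stromal cells by marker gates (circles) or clusters (squares), with exact 95% counting intervals; dotted lines mark 2-fold. Nrg4, Areg and Nrg1 lie left of 0 in epithelium and Nrg1 and Nrg2 right of it in stroma under both groupings, from -3.36 for Areg to 2.49 for Nrg1.

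Few single cells held UMIs of more than 1 kind of ligand. A UMI of any of the 8 was found in 14.6% of f/f epithelial-like cells (417 of 2857), 10.2% of d/d ones (108 of 1058), 10.4% of f/f stromal-like cells (121 of 1166) and 24.8% of d/d ones (52 of 210). UMIs of at least 2 different ligands were found in 24, 1, 5 and 0 of these cells. The highest count of 1 ligand in 1 cell was 4. At this depth a cell without a UMI is not shown to lack the transcript. These counts therefore do not show whether a cell makes 1 ligand or several.

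The receptors show where these ligands could be received. Erbb3, the deleted gene, stood at 77.3 CPM in epithelial-like f/f cells (217 UMIs) and 39.5 CPM in d/d ones (38 UMIs), a log2 ratio of -0.97 (-1.51 to -0.47). Stromal-like cells carried 5 UMIs of it for f/f (5.23 CPM) and 1 in d/d (6.41 CPM), so the stromal deletion could not be checked at this depth. A matching keratin value in f/f stromal-like cells, 5.91% of the epithelial-like level, stands beside these counts. Erbb4, the only receptor that Nrg4 is known to bind, had 3 UMIs in f/f epithelial-like cells and 0 in d/d ones, and 0 in stromal-like cells of both libraries. Egfr, which receives Areg, Tgfa, Hbegf, Btc and Ereg, was at 158 CPM in f/f stromal-like cells (151 UMIs) and 76.9 CPM in d/d ones (12 UMIs), a log2 ratio of -1.04 (-2.02 to -0.19). In epithelial-like cells it was at 105 and 72.7 CPM (log2 -0.53, -0.93 to -0.15). Erbb2, the common partner, was at 159 and 102 CPM in epithelial-like cells (log2 -0.65, -0.98 to -0.33).

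Of the 44 other genes of the pathway (receptors, shedding enzymes, adaptors, inhibitors and immediate targets), 35 reached the minimum in the epithelial gates. Of these, 1 was at least 2-fold higher in d/d and 3 were lower, where 7.06% and 7.66% of all genes were higher and lower. The median log2 ratio was -0.13 beside -0.01 over all genes. The higher one was Dusp4, a phosphatase that limits ERK, at 14.6 CPM in f/f and 47.5 CPM in d/d (log2 1.71, 0.86 to 2.55). The lower ones were the adaptor Grb2 (-1.06, -1.95 to -0.27), its partner Sos1 (-1.71, -4.06 to -0.03) and the transcription factor Junb (-1.36, -2.18 to -0.63). Rhbdf2, which carries the sheddase Adam17 to the cell surface, was just under 2-fold higher at 0.99 (0.55 to 1.42). Etv5 and Myc, targets of ERK signalling, stood at 0.79 (0.32 to 1.26) and 0.74 (0.27 to 1.21).

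In the stromal gates 38 of the 44 reached the minimum, with 2 higher (Spry1 and Dusp4, inhibitors of the pathway) and 1 lower (Egr1, an immediate target). Of all genes, 5.24% were higher and 5.27% lower there. The median was -0.11 beside -0.04 over all genes. Spry1 stood at 11.9 CPM in f/f and 32.1 CPM in d/d (log2 1.43, 0.45 to 2.39), and Egr1 at 23.3 and 5.67 CPM (-2.04, -4.37 to -0.40). The receptor Egfr was at -0.99 (-1.56 to -0.46), just under 2-fold. The list as a whole thus lay close to the median of all genes in both gates. The receptors Egfr, Erbb2 and Erbb3 were below 0 in both, with an interval below 0 for 2 of the 3 in each gate. In the stromal-like cluster only 2 receptors reached the minimum, Egfr below 0 and 1 other above it. The part of the stromal gate's epithelial-like and mesothelial-like cells in its receptor values was not tested. In the clusters the numbers of genes at least 2-fold higher and lower were 1 and 1 of 37 in epithelial-like cells, where 7.24% and 7.19% of all genes were higher and lower, and 5 and 7 of 30 in stromal-like cells, where d/d had 210 cells and 5% and 9.56% of all genes were higher and lower. The epithelial-like ones were Dusp4 and Sos1, so Grb2 (-0.39) and Junb (-0.95) were below 2-fold there. The 5 stromal-like ones that were higher were Adam10, Rhbdf2, Spry2, Socs3 and Etv5, and Spry1 and Dusp4 did not reach the minimum. Egr1 was lower under both groupings, and the other 6 lower ones in the cluster were Egfr, Adam17, Gab1, Map2k1, Errfi1 and Lrig2.

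Genes whose levels ran most like each ligand were taken over 6 points (gated epithelial and stromal cells of both libraries and f/f endothelial and myeloid cells) by Pearson correlation of log2(CPM + 10). With 6 points that share libraries, such values describe and do not test. Nrg4 ran closest to Rac1 (r = 0.997), Kbtbd8 and Taok1. Areg ran closest to Adrm1 (0.999), Jkamp and Cdk8. For Tgfa they were Ctc1 (0.999), Banp and Ptges2, and for Hbegf Spsb2 (0.999), Adgrl3 and Myo5b. Nrg2 was closest to Fxyd1 (0.996), Sox12 and Ssbp2, and Nrg1 to Ankrd35 (0.989), Spry2 and Septin9. Between 6 genes (Nrg4) and 120 genes (Hbegf) of about 9674 reached an r of 0.95.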

How the data were processed

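The authors deposited raw counts of UMIs for each gene in each barcode. Per the file headers the matrices came from Cell Ranger 9.0.0, and the values were not normalised. The submitters' processing notes name both mm10 and GRCm39 without a role, and the probe set version was not given in the sources used here. Cells with at least 200 genes and at most 10% mitochondrial UMIs were used. A cell was gated to 1 of 8 types when that type's marker list had at least 2 UMIs and at least 2 times those of every other list. No doublet caller was run. The lead kept cells with mixed markers (490 in f/f, 165 in d/d) out of the gates, but the clusters hold all cells used, and doublets were not treated there. Leiden clusters (scanpy 1.11.5, leidenalg 0.10.2, 2000 variable genes, 30 components, 15 neighbours, resolution 1) were named from the same markers. A name needed at least 3 markers at 50 CPM, a mean relative level of at least 0.3, a lead of at least 0.15, and a next type at no more than 0.5 of it. A cluster was also left without a name if another type had more markers among its 10 leading genes. That naming rule, the keratin and matrix genes used to read carry-over, and the values by cluster number were chosen after seeing the data. The ligands, the marker lists and the pathway list were chosen with earlier results of these data known. Sums per class were scaled to CPM, and a ratio against 0 UMIs was bounded at 3 counts. Genes reaching 20 UMIs in both libraries together were counted as higher or lower from 2-fold. The text names all 8 ligands, pathway genes, and for each ligand with at least 50 UMIs the 3 genes most like it among those with at least 100 UMIs. Scripts were tested on simulated data. Python 3.11.15, numpy 2.4.6, scipy 1.17.1, pandas 2.3.3, R 4.3.3 and edgeR 4.0.16 (TMM scaling only) were used. Sequences came from RefSeq (GRCm38.p6), where 4 of the 8 ligands are used here.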

Additional observations from a re-analysis of the deposited data

Results flagged for a closer look

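Nrg1 and Tgfa had ratios of opposite sign in the marker-gated compartments, and in neither case was the difference between the compartments tested. Nrg1 had a d/d to f/f log2 ratio of -2.05 in epithelial cells and 1.93 in stromal cells, and both intervals lay on their own side of 0, the epithelial one under some settings only, since it reached above 0 with at least 500 genes, with a lead of 4 times and without collagens. Tgfa had 1.40 in epithelial cells and -0.59 in stromal cells, the second from 23 and 4 UMIs with an interval that spanned 0 (-2.59 to 0.96).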

How the results depend on the processing

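Of 218 values under alternative settings, 189 stayed close to the reported ones and 29 moved. The sign changed for 0 ratios of at least 2-fold and for 10 values nearer to 0, which were those of Hbegf, the pathway medians and Nrg1 in epithelial over stromal cells of f/f. The alternatives were other cell filters, gates, clusters, TMM scaling, other minimum counts, leaving out the 5% deepest cells, and a stromal list without collagens that was chosen after seeing the data. With clusters, the log2 ratio of Nrg2 in stromal cells was 1.35, and without collagens it was 0.49 (-0.12 to 1.07). Without collagens, that of Nrg4 in stromal cells was -0.13, a bound. Log2 ratios of epithelial over stromal cells in f/f became 3.30 (clusters) and 2.10 (without collagens) for Nrg4, 1.98 (lead of 4 times), 2.77 (clusters, a bound) and 2.60 (without collagens) for Areg, 2.34 and 2.32 for Hbegf, and -7.09 for Nrg2 with the lead of 4 times. In d/d under clusters they were 0.74 for Nrg4 and 0.999 for Tgfa, both bounds, and 1.07 for Hbegf. The pathway median in stromal cells was -0.013 with at least 3 marker UMIs, 0.078 with the lead of 4 times and 0.028 in clusters. With a minimum of 100 UMIs, 260 genes were 2-fold higher and 275 lower in epithelial cells and 92 and 163 in stromal cells, and with a minimum of 1 UMI 1664 and 1699 were higher in epithelial and stromal cells. The share of cells with a UMI of Nrg4 in epithelial cells was 6.94% in f/f without thinning and 8.84% and 3.35% in f/f and d/d when thinned to 1000 UMIs, and that of Nrg2 in stromal cells was 7.09% and 12.3% without thinning and 7.33% and 11.1% at 1000 UMIs. Apart from the choice of cells, thinning and minimum count, which set these values by construction, the cause was not tested. No paired analysis was possible because there was 1 library per genotype, and for the same reason no library could be left out. Intervals of d/d to f/f ratios that had excluded 0 came to span it for Nrg1 in epithelial cells under 3 settings and for Hbegf in stromal cells under 5. The same held for Nrg4 in epithelial cells with at least 3 marker UMIs, and for Nrg4 in stromal cells with the lead of 4 times and without collagens. It also held for Nrg2 in stromal cells without collagens. Epithelial Tgfa fell below 2-fold with all deposited barcodes (0.94) and in clusters (0.89). Depth limits every ligand with few UMIs.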
